A study of Rattus norvegicus with 10 samples.

Results

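Cell cycle and DNA replication genes of the rat fetal kidney were followed in 148 probe sets of 112 genes, out of 15923 probe sets on the array and 10412 genes named by one symbol. Members were taken by gene symbol alone: minichromosome maintenance genes, replication and deoxynucleotide enzymes, E2F factors, cyclins and their kinases and inhibitors, mitotic kinases, centromere and checkpoint genes, and every gene named Cdc or Kif with a number. Probe sets that carried several symbols, 312 on the array, could not become members. Since the Cdc and Kif names also cover the Cdc42 GTPase pathway and the kinesins of vesicle transport, the members were sorted into 13 role groups.

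The study took 5 kidneys of growth-restricted fetuses (hyperinsulinemic group, replicates 6 to 10), whose Wistar mothers of 200 to 280 g were on a normal diet and carried a 2 mm piece of a sustained-release insulin implant under the skin, placed a week ahead of mating and once more a week after it. They were compared with 5 kidneys of fetuses of mothers kept on a regular diet, with no implant named (normal group, replicates 1 to 5). The sample titles give day 22 of gestation for both groups, and total RNA of each kidney sample went on 1 Affymetrix array. The question was what excess maternal insulin with growth restriction does to gene expression in the fetal kidney; the labels name no strain for the normal mothers and no litter, fetal sex or batch, so p-values measure only the spread between these samples, and littermates cannot be told apart from independent fetuses.

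A dividing cell first licenses its replication origins by loading the MCM helicase in G1. It starts S phase when cyclins of the D and E types with their kinases release E2F factors from the retinoblastoma protein. It enters mitosis under cyclin B with Cdk1. CDK inhibitors such as p21 and p27 hold the cycle back. In the rat kidney new nephrons still form around birth, so progenitors and young tubules of this stage divide.

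Values are MAS5 signals, 1 per probe set and array, in arbitrary linear units. Differences are hyperinsulinemic minus normal on the log2(signal + 16) scale with their standard error, from limma across all tested probe sets, and SDs follow signals, with 5 arrays per group throughout. The median signal was 130 to 137 on the hyperinsulinemic arrays and 132 to 136 on the normal ones. Kidney markers were present, with 12 of 12 probe sets of 9 genes tested, 8 higher and 4 lower. They summed to 11344 to 12243 in hyperinsulinemic kidneys, against 10462 to 11437.5 in normal kidneys. At an unadjusted p under 0.05 in limma 1 was higher and 1 lower, where 5.36% of all tested probe sets were called. Aqp2 was higher, at 0.45 ± 0.11 and without overlap, as were 0.531% of all. A probe set of Slc34a1 was lower, at -0.17 ± 0.080. Adrenal markers reached the filter in 0 of 7 probe sets, since it asks for 5 arrays, but 4 steroid synthesis genes were high in normal replicate 1 alone. There Cyp11a1 was at 295, Hsd3b1 at 218, Cyp11b1 at 156 and Cyp21a1 at 195, where the highest of the other 9 arrays had 78.2, 6.3, 19.6 and 34.4 for these genes. Without normal replicate 1, 83 of the 123 members with a test lay above 0, their median being 0.030 on the log2 scale, and 4 were higher and 1 lower at an unadjusted p under 0.05. The X-inactivation transcript Xist, below the filter of the test, had signals of 61.3, 70.5, 56.5, 42.4 and 54.0 in hyperinsulinemic replicates 6 to 10, against 1.3, 1.0, 0.9, 2.0 and 0.8 in normal replicates 1 to 5. Xist is made from the inactive X chromosome of female cells, and the labels do not give fetal sex. The Y-linked Sry, also below the filter, had signals of 7.4, 3.7, 5.5, 19.6 and 25.6 in hyperinsulinemic replicates 6 to 10, against 19.5, 14.5, 21.4, 24.2 and 9.8 in normal replicates 1 to 5, and its groups overlapped. Treatment and a difference in fetal sex therefore cannot be told apart in any comparison here. Liver markers, with 6 of 7 tested probe sets higher, summed to 1561 to 5205 in hyperinsulinemic kidneys, against 1263 to 2681 in normal kidneys. Of the 7, 4 were higher at an unadjusted p under 0.05 in limma, where 2.44% of all tested probe sets were. Those of stroma, 0 of 10 higher, summed to 11679 to 13226 in hyperinsulinemic kidneys, against 13113 to 15520.2 in normal kidneys. Of the 10, 7 were lower at an unadjusted p under 0.05 in limma, where 2.93% of all tested probe sets were. Lum was lower in every hyperinsulinemic array than in every normal one, as were 0.51% of all. For erythroid markers 3 of 4 were higher, with sums of 6056 to 8098 in hyperinsulinemic kidneys, against 5163 to 6646 in normal kidneys. These sums are mostly Hbb, at 5877 ± 739 in the hyperinsulinemic group, against 5255 ± 515 in the normal group. At an unadjusted p under 0.05 in limma 0 were higher and 1 was lower, where 5.36% of all tested probe sets were called. It was a probe set of Slc4a1, at -0.24 ± 0.093, whose other probe set was at 0.074 ± 0.099. For leukocyte markers 1 of 3 was higher, with sums of 659.9 to 809 in hyperinsulinemic kidneys, against 684 to 848 in normal kidneys. Nephron progenitor markers had 1 tested probe set, at a log2 difference of 0.038. For the liver list the counts with its mean as a covariate are given below. The part of the kidney, stroma, erythroid, leukocyte and adrenal markers in the results was not tested beyond leaving out single arrays.

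No member passed. Testing required a signal at or above the 40th percentile of its array in 5 or more arrays out of 10, and 123 probe sets of 101 member genes reached it, 118 of them on every array. Of these 123 members, 0 reached an adjusted p under 0.05 (limma), where 0.0104% of all 9601 tested probe sets did, 1 probe set; the smallest adjusted p among the members was 0.91. At an unadjusted p under 0.05, 6 members were higher, against a background of 2.44% of all tested probe sets, and 4 were lower, against 2.93%. These 10 members make 8.13% of the 123, where the background for both directions was 5.36%. In whole kidneys the share of dividing cells and the RNA per cell cannot be told apart. Differences were small: 85 members lay within 0.1 of 0 on the log2 scale, and 1 reached a size of 0.3, as did 1.37% of all tested probe sets.

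The members leaned to the higher side. Of the 123, 81 were higher and 42 lower, or 65.9% higher, where 50.9% of all tested probe sets were above 0. The 42 include Ccne2, which passed the filter mainly through the normal group. With the filter asked of all arrays, 78 of 118 members were higher, or 66.1%, against 51.3% of all probe sets then tested. The median log2 difference was 0.031 over the members and 0.0020 over all tested probe sets. It was also 0.031 over all 148 members without a filter. Leaving out hyperinsulinemic replicate 7 brought the median to 0.015, with 71 of 123 higher, or 57.7%, against 49.7% of all tested probe sets. The count of 6 became 2 without normal replicate 2 or 3, and that of 4 became 0 without hyperinsulinemic replicate 6, 1 without normal replicate 1, 3 or 4, and 2 without normal replicate 2 or hyperinsulinemic replicate 8. With the liver list's mean added as covariate both counts were 1, and without the array with the most Alb in each group they were 6 and 1.

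**Figure D1:**
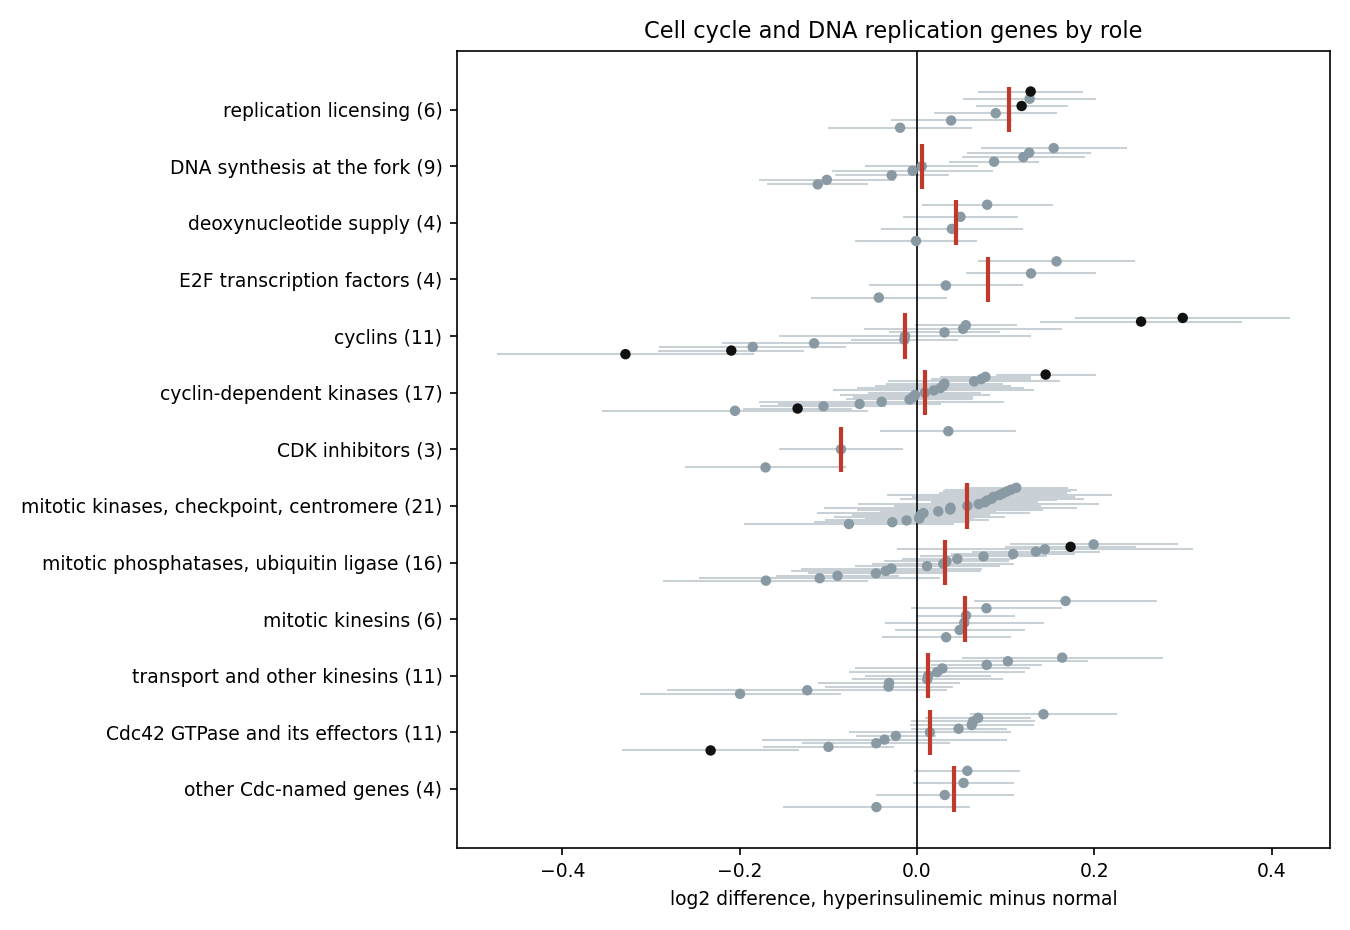
Log2 difference (x axis, hyperinsulinemic minus normal) of each of the 123 tested member probe sets, by role group (y axis, number of probe sets in brackets). Points are probe sets with their standard error as a grey line, black points have an unadjusted p under 0.05, and red bars are role medians; the licensing group has its median at 0.10, and both the highest and the lowest point of all belong to the cyclins.

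Replication licensing genes, the 6 subunits of the MCM helicase that unwinds DNA at the fork, were higher by a small amount in 5 of 6 cases. Their median log2 difference was 0.10, against 0.0020 over all tested probe sets, and leaving out single arrays moved it between 0.077 and 0.12. Mcm3 had signals of 414, 420, 368, 411 and 411 in hyperinsulinemic replicates 6 to 10, against 359, 359, 354, 396 and 377 in normal replicates 1 to 5. Of the hyperinsulinemic arrays 4 lay above every normal array and replicate 8 lay among them, with a log2 difference of 0.13 ± 0.059 (limma, unadjusted p = 0.0479, adjusted p = 0.919). Mcm7 had signals of 691, 737, 691, 730.5 and 698 in hyperinsulinemic replicates 6 to 10, against 704, 618, 646, 648 and 648 in normal replicates 1 to 5. Here normal replicate 1 was within the hyperinsulinemic range and the other 4 normal arrays were below it, and the log2 difference was 0.12 ± 0.052 (limma, unadjusted p = 0.0393, adjusted p = 0.918). Mcm5 stood at 286 ± 30.8 in the hyperinsulinemic group, against 259.5 ± 10.1 in the normal group, a log2 difference of 0.13 ± 0.075, and Mcm4 at 493 ± 32.9 in the hyperinsulinemic group, against 463 ± 40.5 in the normal group, a difference of 0.089 ± 0.070. Mcm6 differed by 0.038 ± 0.068. Mcm2 was the 1 subunit below 0, at -0.019 ± 0.081, and normal replicate 1 gave its highest signal, 576, against 426 to 467 in the other normal arrays; without that array its difference was 0.050.

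Replication genes are textbook targets of E2F, and 8 of 17 promoter windows of the licensing, fork and deoxynucleotide genes carried its words. RefSeq promoter windows of the GRCr8 assembly, 250 bases before to 50 after the annotated start, were at hand for 95 of the 112 member genes and for 27457 genes in all. Searched on both strands were the 4 words TTTCCCGC, TTTGGCGC, TTTCGCGC and TTTGCCGC. At least 1 stood in the windows of 5 of 5 MCM genes (Mcm4 had no window), and in 2.25% of all windows. Among fork genes 2 of 9 held one (Lig1 and Rfc3), and among deoxynucleotide genes 1 of 3 (Tyms). A match is a description of the letters and was not measured as a bound site. The stretches below, each of 80 bases and read 5′ to 3′ on the gene's strand, are shown because they carry these words, which are in capitals. They lie for Mcm2 at chr4:122918095-122918174 (minus strand), Mcm5 at chr19:13488733-13488812 (plus strand), Mcm6 at chr13:42404433-42404512 (minus strand), Mcm7 at chr12:22163179-22163258 (minus strand) and Tyms at chr9:120776084-120776163 (minus strand).
Mcm2: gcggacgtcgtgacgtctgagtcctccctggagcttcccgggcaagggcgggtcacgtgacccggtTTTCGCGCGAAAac
Mcm5: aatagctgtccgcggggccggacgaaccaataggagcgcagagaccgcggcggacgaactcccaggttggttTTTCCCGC
Mcm6: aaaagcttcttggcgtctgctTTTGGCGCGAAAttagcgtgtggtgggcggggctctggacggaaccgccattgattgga
Mcm7: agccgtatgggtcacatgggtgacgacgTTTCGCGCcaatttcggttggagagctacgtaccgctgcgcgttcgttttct
Tyms: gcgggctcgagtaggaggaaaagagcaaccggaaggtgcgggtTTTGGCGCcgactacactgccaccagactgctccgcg
In Mcm2 and Mcm6 the capitals hold a word and, overlapping it, a word on the opposite strand. The Mcm3 words, not printed, straddle or follow its start.

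**Figure D2:**
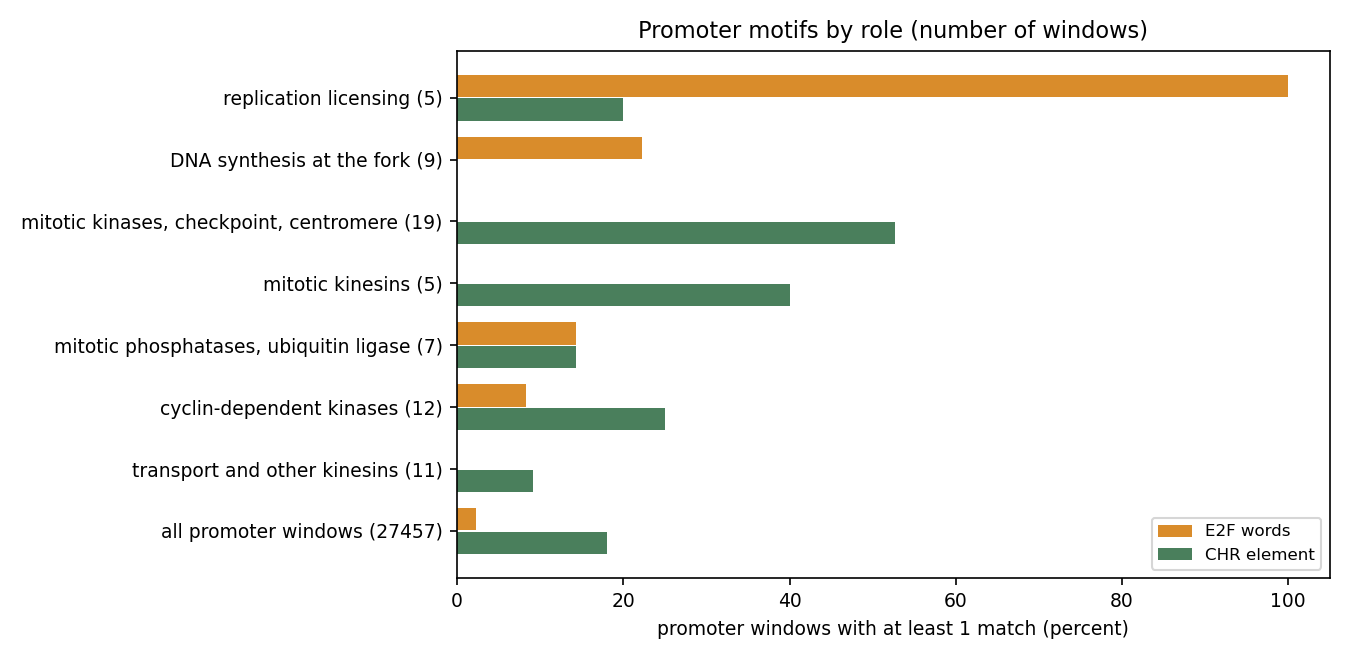
Share of promoter windows (x axis, percent) that hold at least 1 E2F word (orange) or the CHR element (green), by role group (y axis, number of windows in brackets), with all 27457 RefSeq windows at the bottom. E2F words are in 100% of the 5 MCM windows and the CHR element is in 52.6% of the 19 windows of mitotic kinases, checkpoint and centromere genes.

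DNA synthesis genes of the fork were split. Of 9 tested probe sets, 5 were higher and 4 lower, with a median log2 difference of 0.0054. An unadjusted p under 0.05 in limma was reached by 0 of the 9, where 5.36% of all tested probe sets reached it. Pcna, the sliding clamp that holds polymerases on DNA, had signals of 1974, 1839, 1731, 1739 and 1831 in hyperinsulinemic replicates 6 to 10, against 1746, 1632, 1691, 1792 and 1712 in normal replicates 1 to 5. The groups overlapped and differed by 0.087 ± 0.051 (95% interval -0.023 to 0.20). The subunits of replication factor C, which loads that clamp, went different ways, at 0.15 ± 0.082 for Rfc2, 0.12 ± 0.070 for Rfc3 and -0.11 ± 0.057 for Rfc4, with adjusted p-values in limma of 0.941, 0.941 and 0.934. Rfc1, its large subunit, had probe sets at 0.0054 and -0.10. The flap endonuclease gene Fen1 differed by 0.13 ± 0.070, the DNA ligase gene Lig1 by -0.029 ± 0.065 and the primase gene Prim1 by -0.0050 ± 0.090.

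Enzymes that supply deoxynucleotides were near 0. Their 4 probe sets had a median of 0.044, with 3 higher. Tyms, which makes thymidylate, stood at 138 ± 5.98 in the hyperinsulinemic group, against 130.0 ± 9.35 in the normal group, a log2 difference of 0.079 ± 0.074. The thymidine kinase gene Tk1 gave -0.0011 ± 0.068 and 0.039 ± 0.080 in its 2 probe sets, and Rrm1, the large subunit of ribonucleotide reductase, 0.049 ± 0.065.

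E2F factors were measured by 4 probe sets, all of repressor or atypical members of the family, with 3 higher and a median of 0.081. E2f4, a factor that mostly represses in resting cells, had signals of 596, 582, 586, 577 and 479.7 in hyperinsulinemic replicates 6 to 10, against 521, 540.4, 513, 552 and 446 in normal replicates 1 to 5. Array 10 was the lowest hyperinsulinemic array and replicate 5 the lowest normal one, and the difference was 0.13 ± 0.074 (limma, unadjusted p = 0.102, adjusted p = 0.941). The atypical repressor E2f8 differed by 0.16 ± 0.089, E2f5 by 0.033 ± 0.086 and E2f6 by -0.043 ± 0.076. With the liver list's mean added as covariate the median of these 4 was 0.022.

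Cyclins had 11 tested probe sets, 5 higher and 6 lower, with a median of -0.014. The 6 lower and this median include Ccne2, which passed the filter mainly through the normal group. Over all 12 cyclin probe sets without a filter the median was 0.0087, so its sign is not read as a result. At an unadjusted p under 0.05, 2 were higher and 2 lower, or 36.4% of the 11 where the background was 5.36%, and 2 of these 4 are opposing probe sets of one gene, Ccnd1. Ccne1, the cyclin E that drives entry into S phase, had signals of 180.1, 164, 180.4, 176 and 221 in hyperinsulinemic replicates 6 to 10, against 127, 132, 139.6, 170.4 and 198 in normal replicates 1 to 5. The hyperinsulinemic arrays were all above normal replicates 1 to 3 and overlapped with normal replicates 4 and 5, at a difference of 0.25 ± 0.11 (limma, unadjusted p = 0.0428, adjusted p = 0.918). The other cyclin E, Ccne2, stood at 73.9 ± 12.6 in the hyperinsulinemic group, against 85.6 ± 6.22 in the normal group, but it passed the filter on low signals through 4 normal arrays and 1 hyperinsulinemic array, so no direction is read from it. Ccng2, a cyclin G that is made in cells leaving the cycle, had signals of 309.6, 402, 322, 333 and 376 in hyperinsulinemic replicates 6 to 10, against 405, 449.9, 432, 365 and 372 in normal replicates 1 to 5. The hyperinsulinemic arrays 6, 8 and 9 were below every normal array and 7 and 10 were within the normal range, at a difference of -0.21 ± 0.082 (limma, unadjusted p = 0.0232, adjusted p = 0.912). Its relative Ccng1, a target of p53, differed by -0.12 ± 0.10. Mitotic cyclins were close to 0: the probe sets of Ccnb1 gave 0.052 ± 0.11 and 0.055 ± 0.058, and Ccnb2 -0.014 ± 0.14. The D-type cyclin Ccnd3, which answers growth factors in G1, differed by 0.031 ± 0.062.

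Ccnd1, the D-type cyclin best known as a growth factor sensor, had both the highest and the lowest difference of all tested members. The first, 1371150_at, had signals of 228, 290.3, 214, 198 and 210.2 in hyperinsulinemic replicates 6 to 10, against 164, 138, 226, 198 and 188 in normal replicates 1 to 5, and differed by 0.30 ± 0.12 (limma, unadjusted p = 0.0264, adjusted p = 0.918). The second, 1383075_at, had signals of 254, 159, 318, 308 and 302 in hyperinsulinemic replicates 6 to 10, against 346, 325, 319, 374 and 299.5 in normal replicates 1 to 5, and differed by -0.33 ± 0.15 (limma, unadjusted p = 0.0394, adjusted p = 0.918). Hyperinsulinemic replicate 7 was the highest of the 10 arrays on the first and the lowest on the second. The third, 1371643_at, had signals of 981, 927, 1002, 936 and 975 in hyperinsulinemic replicates 6 to 10, against 1121, 918, 925, 977 and 939 in normal replicates 1 to 5. On it the groups overlapped almost fully, at -0.014 ± 0.060 (95% interval -0.14 to 0.11). Without replicate 7 the outer probe sets gave 0.21 and -0.16. Its probe sets thus gave no single direction. This was not the only such case: of 17 genes with several tested probe sets, 6 had them all on one side of 0 and 11 did not.

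**Figure D3:**
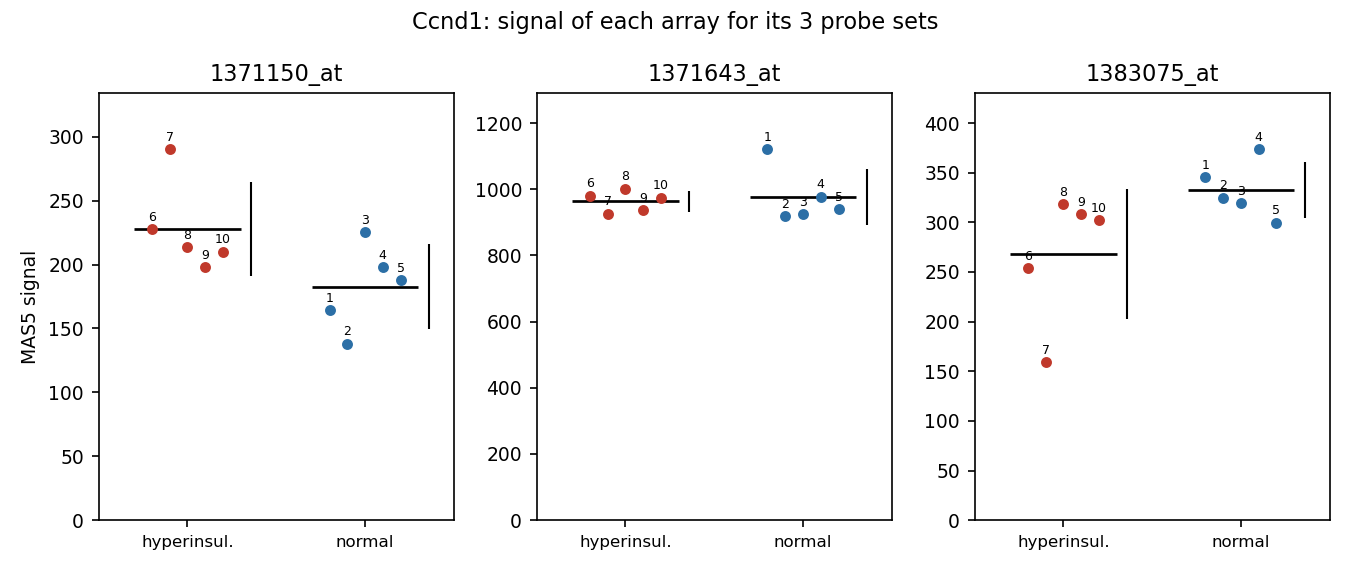
MAS5 signal (y axis, linear, from 0) of each array for the 3 probe sets of Ccnd1, with the hyperinsulinemic arrays in red and the normal arrays in blue, numbered by replicate. Horizontal lines are group means and vertical lines are ± 1 SD (n = 5 each); replicate 7 is at 290.3 on 1371150_at and at 159 on 1383075_at.

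Cyclin-dependent kinases were centred on 0, with 9 of 17 tested probe sets higher and a median of 0.0089. Cdk9, the kinase of the elongation factor P-TEFb, which acts in transcription rather than in the cycle, had signals of 502, 536, 503, 532 and 507 in hyperinsulinemic replicates 6 to 10, against 492, 458, 422, 480.4 and 475 in normal replicates 1 to 5. It was the 1 member of 123 whose groups did not overlap, every hyperinsulinemic array being above every normal one, where the groups did not overlap for 1.04% of all tested probe sets (0.531% of all were higher throughout and 0.51% lower). Its difference was 0.15 ± 0.057 (limma, unadjusted p = 0.0221, adjusted p = 0.91). Cdk17, a kinase of the PCTAIRE family, had signals of 340.4, 407, 367, 353 and 334 in hyperinsulinemic replicates 6 to 10, against 397, 391, 399, 404 and 388 in normal replicates 1 to 5. The normal arrays were tightly grouped, with 4 hyperinsulinemic arrays below them and replicate 7 above, at -0.13 ± 0.062 (limma, unadjusted p = 0.0463, adjusted p = 0.919).

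For Cdk1 and Cdk4, which drive the cycle itself, the interval of the difference included 0. Cdk1, the mitotic kinase, had signals of 818, 825, 861, 786 and 762 in hyperinsulinemic replicates 6 to 10, against 726, 781, 782, 729 and 833 in normal replicates 1 to 5. The groups overlapped, and the difference was 0.072 ± 0.056 (95% interval -0.048 to 0.19). For Cdk4, the partner of D-type cyclins, the signal was 1984 ± 84.3 in the hyperinsulinemic group, against 1879.9 ± 90.0 in the normal group, a difference of 0.077 ± 0.051 (95% interval -0.032 to 0.19). Cdk7, which activates the other kinases, differed by -0.0047 ± 0.068, and Cdk8, of the Mediator complex, by -0.0085 ± 0.071. Cdk18 had probe sets at -0.21 and 0.026, and Cdk13, which acts on RNA polymerase, at -0.040, 0.019 and 0.064. The X-linked Cdk16 differed by 0.031 ± 0.066.

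CDK inhibitors among the members had 3 tested probe sets, 1 higher and 2 lower, with a median of -0.086 that was -0.036 without hyperinsulinemic replicate 10. Cdkn1a, the p21 inhibitor induced by p53, had signals of 189, 251, 259, 253 and 259 in hyperinsulinemic replicates 6 to 10, against 272, 284, 296, 279.9 and 236 in normal replicates 1 to 5. Hyperinsulinemic replicate 6 was the lowest of all arrays, and the other 4 lay between normal replicate 5 and the remaining normal arrays, at a difference of -0.17 ± 0.090 (limma, unadjusted p = 0.0793, adjusted p = 0.941). Cdkn1b, the p27 inhibitor of resting cells, stood at 765 ± 63.0 in the hyperinsulinemic group, against 747 ± 79.2 in the normal group (0.035 ± 0.077), and the phosphatase gene Cdkn3 differed by -0.086 ± 0.070. Cdkn2a and Cdkn2b, inhibitors of Cdk4 linked to senescence, were below the filter, at mean signals of 7.40 and 18.5 in hyperinsulinemic kidneys, against 2.78 and 29.0 in normal kidneys.

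**Figure D4:**
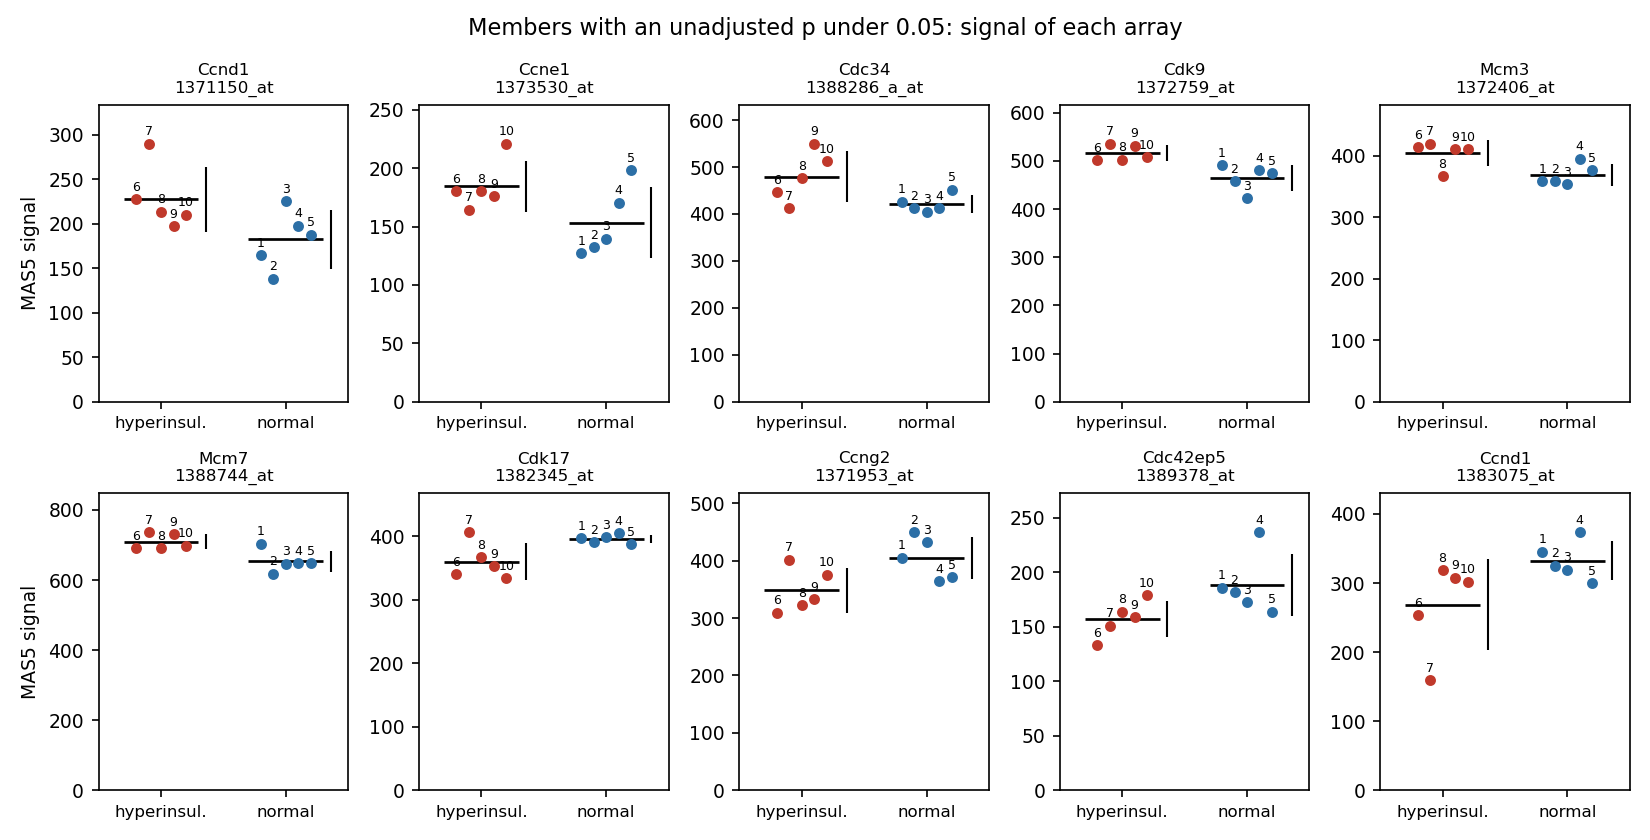
MAS5 signal (y axis, linear, from 0) of each array for the 10 member probe sets with an unadjusted p under 0.05, from the highest log2 difference to the lowest, with hyperinsulinemic arrays in red and normal arrays in blue, numbered by replicate. Horizontal lines are group means and vertical lines ± 1 SD (n = 5 each); only in the panel of Cdk9 are all hyperinsulinemic arrays above all normal ones.

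Genes grouped with mitosis were mostly above 0, by small amounts. Over the 3 mitotic groups together 34 of 43 tested probe sets were higher and 9 lower, with a median of 0.048. That is 79.1% higher, where 50.9% of all tested probe sets were. Leaving out hyperinsulinemic replicate 7 gave 28 of 43 higher and a median of 0.031, where 49.7% of all tested probe sets were higher. Some genes count more than once, such as Cdc20 with 4 probe sets. The grouping is broad and also counts Cdc34 and Cdc25a here. In the group of mitotic kinases, spindle checkpoint, centromere and chromosome condensation, 18 of 21 tested probe sets were higher and 3 lower, with a median of 0.057 and a highest value of 0.11. Without hyperinsulinemic replicate 7 that median was 0.026. Of the 21, 0 had an unadjusted p under 0.05 in limma, where 5.36% of all tested probe sets did. Mki67, the proliferation marker that coats mitotic chromosomes, had signals of 508, 692, 675, 613 and 590.4 in hyperinsulinemic replicates 6 to 10, against 704, 677, 504, 503 and 622 in normal replicates 1 to 5. Both groups spanned nearly the same range, and the difference was 0.037 ± 0.11 (95% interval -0.19 to 0.26).

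Top2a, the topoisomerase that untangles sister chromatids, had signals of 879, 784, 877, 911 and 876 in hyperinsulinemic replicates 6 to 10, against 812, 750.3, 775, 877 and 784 in normal replicates 1 to 5, on 1388650_at. Replicate 7 was the lowest hyperinsulinemic array, and the difference was 0.11 ± 0.059 (limma, unadjusted p = 0.0764, adjusted p = 0.941); the other probe set, 1372186_a_at, differed by -0.077 ± 0.12. Birc5, which encodes survivin of the chromosomal passenger complex, stood at 506 ± 31.5 in the hyperinsulinemic group, against 472 ± 47.8 in the normal group, a difference of 0.10 ± 0.073. Its kinase partner Aurkb differed by 0.0044 ± 0.078 and the spindle pole kinase gene Aurka by 0.0072 ± 0.12. Plk1, a kinase of mitotic entry, gave 0.10 ± 0.072. For the checkpoint genes the differences were 0.076 ± 0.060 (Bub3), 0.084 ± 0.10 (Bub1b) and 0.086 ± 0.092 (Mad2l1). The X-linked centromere gene Cenpi differed by 0.038 ± 0.14 (95% interval -0.27 to 0.34), and Cenpv had probe sets at -0.028 and 0.070.

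Mitotic kinesins, the motors that build and pull the spindle, were higher in 6 of 6 probe sets of 5 genes, with a median of 0.054 and a range of 0.033 to 0.17. None passed, and 0 had an unadjusted p under 0.05 in limma, where 5.36% of all tested probe sets did. Kif18b differed by 0.17 ± 0.10, Kif20a, a motor of cytokinesis, by 0.078 ± 0.085, Kif22 by 0.055 ± 0.056, Kif2c, which depolymerises microtubules, by 0.053 and 0.048, and Kif15 by 0.033 ± 0.073. The sign of Kif15 did not hold without hyperinsulinemic replicate 7, at -0.0014, or without normal replicate 4, at -0.0038.

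Among phosphatases and ubiquitin ligase components, grouped here with mitosis, 10 of 16 were higher, with a median of 0.031. Cdc34, an E2 enzyme that marks inhibitors of the cycle for destruction, had signals of 446, 412, 476, 549.9 and 512 in hyperinsulinemic replicates 6 to 10, against 426, 412, 405, 412 and 452 in normal replicates 1 to 5, on 1388286_a_at. Hyperinsulinemic replicates 8 to 10 lay above every normal array and replicates 6 and 7 did not, at 0.17 ± 0.074 (limma, unadjusted p = 0.0344, adjusted p = 0.918), whereas its other tested probe set gave 0.011 ± 0.082. Cdc20, the activator of the anaphase-promoting complex, had all 4 tested probe sets above 0, from 0.075 to 0.20. The largest belonged to 1389506_x_at, whose suffix marks probes that can pair with other transcripts, at 0.20 ± 0.095 (limma, unadjusted p = 0.0535, adjusted p = 0.931). Ube2c, the E2 enzyme of that complex, stood at 776 ± 73.4 in the hyperinsulinemic group, against 761 ± 78.7 in the normal group, a difference of 0.030 ± 0.080. Its subunit gene Cdc23 had probe sets at -0.090 and 0.033, and the 3 probe sets of Cdc26 lay between -0.046 and -0.029. The activating phosphatases Cdc25a and Cdc25b differed by -0.17 ± 0.12 and 0.13 ± 0.072.

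Mitotic promoters are known for another pair of elements, the CHR (cell cycle genes homology region, TTTGAA), which recruits the MuvB core, and the CCAAT box of NF-Y. On either strand the CHR letters stood in 10 of 19 windows of mitotic kinase, checkpoint and centromere genes, or 52.6%, and in 2 of 5 of mitotic kinesins. They stood in 18.1% of all windows and in 1 of 11 windows of transport and other kinesins. CCAAT stood in 54.8% of the 31 windows of all genes grouped with mitosis and in 37.7% of all windows. E2F words were in 1 of those 31, that of Cdc25a. Shown for their CHR and CCAAT letters, in capitals on whichever strand, are stretches of 80 bases from Cdk1 at chr20:19265213-19265292 (plus strand), Ccnb2 at chr8:79981659-79981738 (minus strand), Cdc20 at chr5:137255800-137255879 (minus strand), Top2a at chr10:84473094-84473173 (minus strand) and Mki67 at chr1:199952654-199952733 (minus strand).
Cdk1: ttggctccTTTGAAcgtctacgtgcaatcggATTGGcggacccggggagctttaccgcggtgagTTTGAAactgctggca
Ccnb2: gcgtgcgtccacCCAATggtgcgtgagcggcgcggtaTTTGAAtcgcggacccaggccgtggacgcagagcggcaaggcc
Cdc20: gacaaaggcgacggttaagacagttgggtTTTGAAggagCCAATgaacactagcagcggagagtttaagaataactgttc
Top2a: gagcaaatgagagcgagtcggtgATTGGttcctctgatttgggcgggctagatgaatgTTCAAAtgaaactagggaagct
Mki67: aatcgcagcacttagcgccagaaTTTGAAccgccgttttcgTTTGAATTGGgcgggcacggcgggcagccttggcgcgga
In Mki67 the second CHR overlaps a CCAAT box read on the opposite strand. All 5 genes with these stretches had members tested, at differences of 0.072, -0.014, 0.075 to 0.20, -0.077 and 0.11, and 0.037, in the order of the sequences.

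Some members carry a cell cycle name but were sorted outside the cycle by role, which does not mean that none of them acts in division. Over transport and other kinesins, Cdc42 genes and other Cdc-named genes, 16 of 26 tested probe sets were higher, with a median of 0.019. Transport and other kinesins (in short, transport kinesins), Kif2a among them, had 7 of 11 higher and a median of 0.013. Kif5b, the motor of conventional kinesin, stood at 717 ± 107 in the hyperinsulinemic group, against 707 ± 41.1 in the normal group (0.012 ± 0.085). The Cdc42 group had 6 of 11 higher and a median of 0.015. Cdc42 itself, a GTPase of cell polarity and actin, gave 0.047 ± 0.054 and -0.024 ± 0.045. Cdc42ep5, one of its effectors, had signals of 133, 151, 164, 159 and 179 in hyperinsulinemic replicates 6 to 10, against 186, 182, 172, 237 and 164 in normal replicates 1 to 5. Hyperinsulinemic replicates 6, 7 and 9 lay below every normal array and the others overlapped, at -0.23 ± 0.10 (limma, unadjusted p = 0.0342, adjusted p = 0.918). Other probe sets of this group disagreed within a gene, at 0.069 and -0.037 for Cdc42bpb and 0.062 and -0.10 for Cdc42se1. Cdc37, a partner of Hsp90 that loads kinases, differed by 0.057 ± 0.060.

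Array by array, the groups overlapped and replicate 7 stood out. For each role group the log2 signals were centred on their mean over the 10 arrays and averaged per array. For the MCM genes this deviation was 0.038, 0.16, -0.017, -0.028 and 0.052 in hyperinsulinemic replicates 6 to 10, against 0.036, -0.094, -0.099, -0.0058 and -0.038 in normal replicates 1 to 5. Replicate 7 stood highest and normal replicates 2 and 3 lowest, while the groups overlapped. For the mitotic kinase, checkpoint and centromere genes it was 0.00073, 0.065, 0.040, 0.024 and -0.015 in hyperinsulinemic replicates 6 to 10, against -0.011, -0.048, -0.037, -0.040 and 0.022 in normal replicates 1 to 5. Again the groups overlapped, through normal replicate 5 and hyperinsulinemic replicates 6 and 10. For the mitotic kinesins replicates 6 and 7 were at 0.096 and 0.15, and hyperinsulinemic replicates 8 to 10 at -0.013, -0.013 and -0.042, within the normal range of -0.10 to 0.046. Hyperinsulinemic replicate 7 gave the highest signal of the 10 arrays for 23.6% of the members and for 14.5% of all tested probe sets, and the lowest for 4.88% and 10.7%. Normal replicate 2 gave the lowest for 15.4% of the members and 6.79% of all tested probe sets. Hyperinsulinemic replicate 6, the array with the most Alb, gave the lowest signal for 22 of the 123 members and 1636 of all 9601 tested probe sets.

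**Figure D5:**
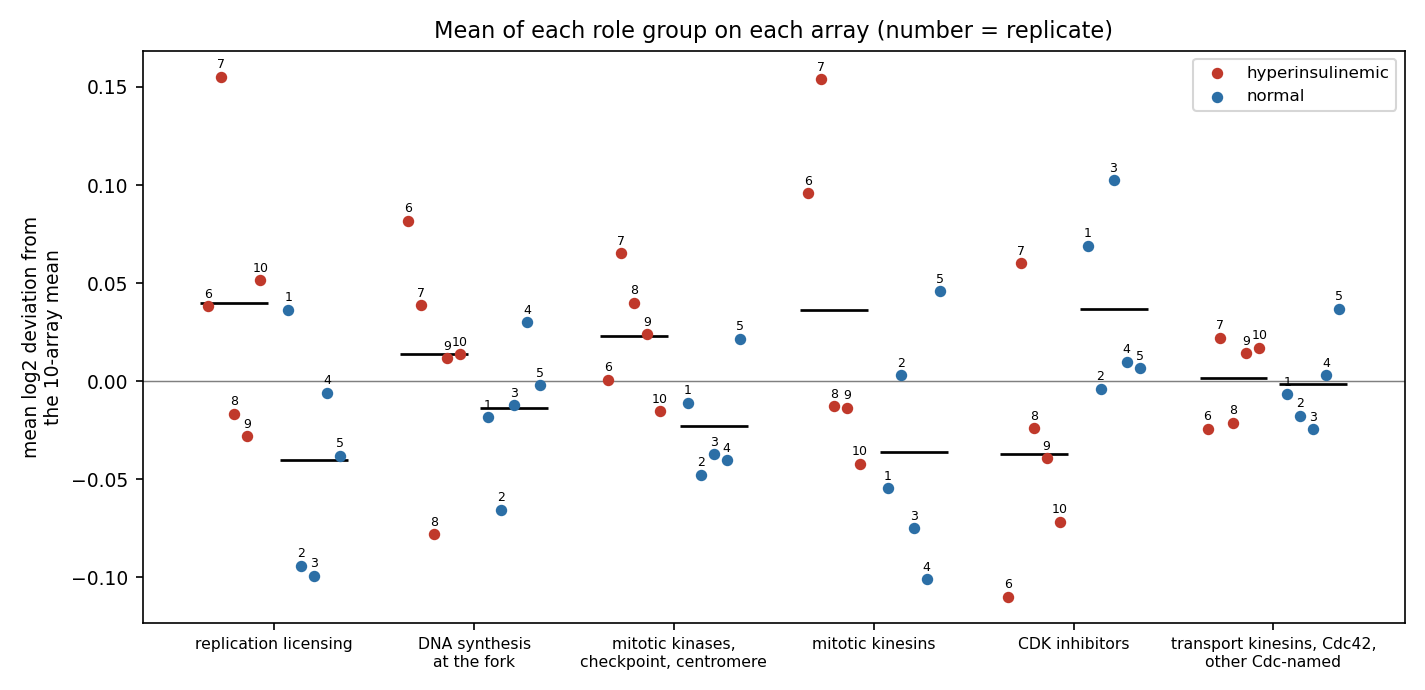
Mean log2 deviation from the 10-array mean (y axis) for 5 role groups and for the members sorted outside the cycle (x axis), 1 point per array. The hyperinsulinemic arrays are in red to the left of the normal arrays in blue, and numbers give the replicate. Black lines are group means; in every column the groups overlap, and hyperinsulinemic replicate 7 is highest for the MCM genes (0.16) and the mitotic kinesins (0.15).

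Other genes of replication, mitosis and cycle control, taken from a list of 78 genes outside the members, were also above 0 more often than below. The list mixes drivers with brakes of the cycle. The CDK inhibitor gene Cdkn1c counts among the higher, and Cdkn2c and the retinoblastoma gene Rb1 among the lower. Of the list, 52 genes had a probe set and 57 probe sets of 51 genes were tested. Of these, 36 were higher and 21 lower, with a median of 0.037, and 0 passed in limma. The 2 with an unadjusted p under 0.05, which make 3.51% of the 57 where 5.36% of all tested probe sets did so, were both higher. Kifc1, a minus-end kinesin of the spindle, stood at 408 ± 65.5 in the hyperinsulinemic group, against 350 ± 15.8 in the normal group, a difference of 0.20 ± 0.088 (limma, adjusted p = 0.918). Pole, the catalytic subunit of the leading-strand polymerase, stood at 236 ± 15.1 in the hyperinsulinemic group, against 206 ± 28.1 in the normal group, a difference of 0.19 ± 0.089 (limma, adjusted p = 0.919). A list of p53 targets and growth arrest genes had 7 tested probe sets, 4 higher and 3 lower, with a median of 0.015 and 0 at an unadjusted p under 0.05 in limma.

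Below the filter were 25 member probe sets, whose group means reached at most 84.7. They include every probe set of 11 genes: Prim2, Ccnd2, Cdk6, Cdk12, Cdkn2a, Cdkn2b, Cenpm, Cenpt, Kif1b, Kif6 and Cdc42bpa. Ccnd2, the remaining D-type cyclin, had mean signals of 59.2 in hyperinsulinemic kidneys, against 54.0 in normal kidneys. Of the 123 tested members, 5 reached the percentile on 5 to 9 arrays (Ccne2, Cenpe, Kif3a and probe sets of Cdc20 and Cdc25a), and 1 of these, Ccne2, did so on fewer than 3 arrays of one group. Ccna2, Cdk2, Rrm2, E2f1 and Kif11 were not analysed here, since no probe set carried any of them as its single symbol in the annotation used.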

How the data were processed

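Each deposited table holds intensity on a linear scale, a signal for every probe set. MAS5 made them, per the submitters' processing notes; its version and settings are not given in the sources used here. These values have a 2% trimmed mean of 250 on every array and were used as deposited. Members and all gene lists were chosen with earlier results of these data known. GEO's platform annotation gave 1 symbol for 12789 of 15923 probe sets, several for 312, and 2822 were unnamed here. The 57 control probe sets were left out, signals were transformed as log2(signal + 16), and 9601 probe sets at or above the 40th percentile of the array in 5 or more arrays were tested. The test, two-sided, was limma 3.58.1 (R 4.3.3; lmFit, then eBayes with trend on), adjusted after Benjamini and Hochberg over all 9601 probe sets with a threshold of 0.05. The number of arrays limits the precision. The text names members by a rule: up to 3 per role and direction with an unadjusted p under 0.05, the member of highest mean signal in each role, 30 fixed genes, the extremes, X-linked members and genes whose probe sets disagree; other members are named as examples, chosen after their values were seen. Promoters are RefSeq windows matched by Entrez identifier, and GRCr8 gives chromosomes. Alternatives were other scalings, pseudocounts, filters, variance models, array weights, covariates and left-out arrays. Summaries and figures used Python 3.11.15 and matplotlib 3.10.9.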

Additional observations from a re-analysis of the deposited data

Results flagged for a closer look

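In groups of 5 arrays, an array was singled out when its gap to the nearest other one exceeded 0.71 of the group's range. This was applied 150 times, to the named members and the role means, and 7 cases were found, where chance gives about 1 in 20. The Mcm2 signal of normal replicate 1 was 576, against 426 to 467 in the rest of its group. In the hyperinsulinemic group, Mcm3 was 368 in replicate 8 (the rest 411 to 420), E2f4 was 479.7 in replicate 10 (577 to 596) and Ccne1 was 221 in replicate 10 (164 to 180.4). Cdkn1a on 1388674_at was 189 in replicate 6 (251 to 259), and Top2a on 1388650_at was 784 in replicate 7 (876 to 911). The mean log2 deviation of the deoxynucleotide supply genes was 0.11 in hyperinsulinemic replicate 9 (the rest -0.021 to 0.014). Xist, outside the tested probe sets, averaged 56.9 in hyperinsulinemic kidneys and 1.2 in normal kidneys.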

How the results depend on the processing

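No member passed in limma under any of the 12 alternatives or with any array left out. The probe sets called over the whole array, 1 as reported, were 2 with arrays shifted to a common median, 5 without a filter, 4 with array weights, and 0 without the intensity trend (521 at an unadjusted p under 0.05), with the liver list as a covariate (489) and without the arrays with the most Alb (622); with each array left out they were 0 to 4. The 6 higher members became 1 with the liver covariate and 2 to 7 with each array left out. The 4 lower members became 1 with the liver covariate, 1 without the arrays with the most Alb, and 0 to 5 with each array left out. The members' median stayed at 0.015 to 0.041 with arrays left out. Among role medians, fork genes were at 0.054 without hyperinsulinemic replicate 10, and other Cdc-named genes at -0.013 with the liver covariate and -0.014 without the most Alb. With single arrays left out the medians spanned -0.014 to 0.054 for fork genes, -0.035 to 0.044 for cyclins, -0.016 to 0.021 for cyclin-dependent kinases, -0.12 to -0.036 for CDK inhibitors, 0.015 to 0.066 for deoxynucleotide supply, 0.0097 to 0.046 for mitotic phosphatases and ubiquitin genes, -0.010 to 0.033 for transport kinesins, -0.011 to 0.044 for Cdc42 genes and -0.0015 to 0.069 for other Cdc-named genes. Of 57 named members, 24 changed sign somewhere, none of them called. With the liver covariate the log2 differences were 0.0058 for Mcm2, -0.0015 for Rfc1 on 1374919_at, 0.0081 for Cdk13 on 1386164_at, 0.022 for Cenpv on 1382200_at, -0.030 for Ube2c, 0.10 for Cdc42bpb on 1387695_at, -0.017 for Cdc37. Without the arrays with the most Alb they were -0.021 for Rfc1 on 1374919_at, 0.12 for Cdk13 on 1386164_at, -0.016 for Cdkn1b, -0.0091 for Aurkb, 0.064 for Cenpv on 1382200_at, -0.0015 for Ube2c, -0.027 for Kif15, 0.038 for Cdc42bpb on 1387695_at. Array weights gave -0.013 for Rfc1 on 1374919_at, 0.017 for Tk1 on 1372631_at, 0.093 for Cdk13 on 1386164_at, 0.015 for Cenpv on 1382200_at. The Gapdh ratio as a covariate gave -0.0068 for Rfc1 on 1374919_at, 0.0077 for Tk1 on 1372631_at, and a common median gave 0.00048 for Tk1 on 1372631_at. With each array left out the ranges were -0.061 to 0.050 for Mcm2, -0.0066 to 0.079 for Mcm6, -0.017 to 0.024 for Rfc1 on 1374919_at, -0.043 to 0.025 for Tk1 on 1372631_at, -0.044 to 0.13 for Ccnb1 on 1370345_at, -0.035 to 0.036 for Ccnd1 on 1371643_at, -0.12 to 0.059 for Cdk13 on 1386164_at, -0.059 to 0.069 for Cdk13 on 1390260_at, -0.0071 to 0.069 for Cdk16, -0.016 to 0.11 for Cdk18 on 1386817_at, -0.011 to 0.089 for Cdkn1b, -0.045 to 0.12 for Aurka, -0.033 to 0.069 for Aurkb, -0.068 to 0.15 for Cenpi, -0.020 to 0.14 for Cenpv on 1383050_at, -0.056 to 0.036 for Cenpv on 1382200_at, -0.022 to 0.10 for Mki67, -0.12 to 0.020 for Top2a on 1372186_a_at, -0.0099 to 0.064 for Cdc23 on 1389646_at, -0.0084 to 0.089 for Ube2c, -0.0038 to 0.073 for Kif15, -0.067 to 0.059 for Kif5b, -0.12 to 0.051 for Cdc42bpb on 1387695_at. The cause was not tested. No paired analysis was possible because the groups share no replicate number. Members with differences of over 2 standard errors, such as Cdk9, had an adjusted p of 0.91 or more in limma as reported. The smallest adjusted p of any member in limma was 0.45 with array weights and 0.60 without hyperinsulinemic replicate 7. These values do not show how small a difference 5 arrays a group could detect. Dim probe sets such as those of Ccne2 and Cdc25a lie close to the filter.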
